A study of Mus musculus with 2 samples.

Results

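Glycolysis and hypoxia response genes were described in mouse small-intestinal co-cultures of fibroblasts and crypts, as 35 named genes out of the 18309 genes listed in 1 or both of the deposited count tables. The genes were taken by name from a list, and all 35 were present. They were read as 2 roles: 17 glycolytic enzymes and sugar or lactate transporters, and 18 targets and regulators of hypoxia-inducible factor (HIF). The question was how these genes differed between the culture conditions, between epithelial states, and between the Grem1-type and Mgp-type fibroblasts.

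Each condition was 1 Drop-seq library, a droplet method that counts messenger RNA molecules (UMIs) per cell barcode, made from a pool of 6 co-cultures of C57BL6 small intestine at 10 weeks of age. In Ptger4-OFF the medium carried ONO-AE3-208 dissolved in DMSO, an inhibitor of the prostaglandin receptor Ptger4 (EP4), renewed every second day at 10 uM, and the epithelium grew as budding organoids. In Ptger4-ON it carried DMSO alone, and the epithelium grew as spheroids. Both grew in Organoid Growth Media, and neither library held freshly isolated tissue. With 1 library per condition there is no replicate check. No p-value or standard error was therefore made, counts of genes past a fixed fold describe these libraries and are no test, and intervals are 95% intervals that cover counting error only.

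Glycolysis splits glucose into pyruvate in the cytosol, and lactate dehydrogenase turns pyruvate into lactate when respiration does not take it up. HIF is a transcription factor whose alpha subunits are hydroxylated and destroyed while oxygen is plentiful; at low oxygen they persist, pair with a constitutive partner and bind short core motifs beside genes for glucose uptake, glycolysis, mitochondrial turnover and blood vessel growth. The intestinal epithelium is known for a steep oxygen gradient from the crypt base to the lumen, along which HIF targets are induced. Because HIF is controlled mainly at the protein level, the level of Hif1a mRNA is not a readout of HIF activity.

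The HIF core motif was searched in RefSeq promoters (GRCm38.p6, 250 bases before to 50 after a gene's start), which are shown for the 3 HIF-role genes with an entry that stood highest in Ptger4-OFF over Ptger4-ON epithelial-like cells and for the hexokinase gene Hk2, which was lower in Ptger4-OFF in both cell classes. Capitals mark ACGTG and GCGTG on either strand (CACGT and CACGC when read on the other strand), and overlapping matches run together. Ankrd37 lies at chr8:45999801-46000100, minus strand, P4ha2 at chr11:54100674-54100973, plus strand, Ero1l at chr14:45318523-45318822, minus strand and Hk2 at chr6:82774405-82774704, minus strand. Each window covers the annotated start and the first bases of the transcript.
Ankrd37: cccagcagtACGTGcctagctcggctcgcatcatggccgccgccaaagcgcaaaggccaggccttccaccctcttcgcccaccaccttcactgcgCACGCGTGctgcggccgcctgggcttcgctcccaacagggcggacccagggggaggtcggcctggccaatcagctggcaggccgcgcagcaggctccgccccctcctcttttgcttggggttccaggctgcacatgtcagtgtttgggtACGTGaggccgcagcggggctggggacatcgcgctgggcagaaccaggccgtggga
P4ha2: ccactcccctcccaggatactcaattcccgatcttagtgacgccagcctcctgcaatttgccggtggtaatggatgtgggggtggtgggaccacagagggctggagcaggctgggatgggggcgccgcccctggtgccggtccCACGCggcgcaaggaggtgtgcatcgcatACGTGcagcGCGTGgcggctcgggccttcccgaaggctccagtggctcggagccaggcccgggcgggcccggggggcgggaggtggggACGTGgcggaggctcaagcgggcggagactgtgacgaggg
Ero1l: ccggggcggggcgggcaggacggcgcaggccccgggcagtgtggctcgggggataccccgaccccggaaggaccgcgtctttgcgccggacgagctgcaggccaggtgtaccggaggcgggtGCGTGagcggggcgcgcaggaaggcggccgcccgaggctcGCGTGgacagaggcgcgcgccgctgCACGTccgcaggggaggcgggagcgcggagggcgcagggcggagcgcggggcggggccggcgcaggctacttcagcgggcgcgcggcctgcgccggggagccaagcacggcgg
Hk2: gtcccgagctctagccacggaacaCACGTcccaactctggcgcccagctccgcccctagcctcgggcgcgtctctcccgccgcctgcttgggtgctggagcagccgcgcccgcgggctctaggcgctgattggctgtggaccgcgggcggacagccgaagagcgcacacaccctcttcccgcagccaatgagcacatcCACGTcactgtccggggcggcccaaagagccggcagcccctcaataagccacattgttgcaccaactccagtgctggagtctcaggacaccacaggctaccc
Of the 35 genes, 33 matched an entry; Ndrg1 and Bnip3l did not. Taking the first listed promoter of each gene, 26 of 33 held ACGTG or GCGTG, 78.8%, against 43.8% of all 27025 genes. The count was 14 of 16 HIF-role genes and 12 of 17 glycolytic genes. Hk1, Gpi1, Aldoa, Tpi1, Pkm, Vegfa and Mxi1 had no match in their first listed promoter, and of these Hk1, Aldoa, Pkm, Vegfa and Mxi1 had one in another listed promoter. The genes that stood higher in Ptger4-OFF and those that stood lower thus both included promoters with the core letters: the first listed promoter of Hif1a held 2 separate matches and that of Hk2 held 2. A match is a string of letters and was not read as a binding site.

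Ptger4-OFF gave 1560 cells and Ptger4-ON 876 cells after filtering, with median depths over all deposited barcodes of 4161 and 4366 UMIs. Joint clustering, run without the 35 genes, split them into 1200 and 588 epithelial-like cells and 360 and 288 fibroblast-like cells, in Ptger4-OFF and Ptger4-ON. Different clusters held most of the epithelial-like cells in each library: the cluster led by Slfn9 and Aqp4, left without a cell type name, held 519 Ptger4-OFF and 146 Ptger4-ON cells, the cycling cluster 332 and 119, the fetal-like cluster (Clu, Msln, Ly6a) 98 and 221, the enterocyte-like cluster (Fabp1, Apoa4, Sis) 169 and 34, the Paneth- and goblet-like cluster 65 and 67, and the enteroendocrine-like cluster 17 and 1. Of the fibroblast-like cells, 52 Ptger4-OFF and 51 Ptger4-ON cells were Grem1-type, 304 and 211 were Mgp-type, and a shallow cluster led by Grem1 and Actg2 held 4 and 26. Barcodes over 50000 UMIs, all epithelial-like, numbered 6 in Ptger4-OFF and 16 in Ptger4-ON and carried 4.97% and 22.9% of the class UMIs. The libraries shared 1 barcode. Barcodes 1 base apart from a deeper one numbered 15 in Ptger4-OFF and 55 in Ptger4-ON epithelial-like cells, and leaving them out moved no HIF-role gene across the 1.5-fold line. Fibroblast markers in epithelial-like cells reached at most 0.312% of their own class level, and epithelial markers in fibroblast-like cells at most 1.90%.

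In epithelial-like cells 7 of the 18 HIF-role genes stood at least 1.5-fold higher in Ptger4-OFF than in Ptger4-ON, led by Ndrg1, Ankrd37, P4ha2 and Ero1l, while others of the role were level or lower and the glycolytic genes split. Levels are UMIs of a gene per 1000000 UMIs of the class (CPM), and a gene is called past the fold where the ratio of CPM is at least 1.5 in either direction with at least 20 UMIs over both groups. All 18 HIF-role genes were measured. The 7 compare with 7.41% of the 11613 genes measured in this class, and 1 stood at least 1.5-fold lower, where 10.6% did. Their median log2 ratio was 0.36, against -0.04 over all measured genes. Of the 17 glycolytic genes, 1 was past the fold upward and 1 downward, with a median log2 ratio of 0.16.

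Ndrg1, a stress-response gene widely used as a hypoxia marker, was at 525 CPM in Ptger4-OFF and 223 CPM in Ptger4-ON, a ratio of 2.35 (2.21 to 2.51). Ankrd37, a small ankyrin-repeat protein and direct HIF target, was at 135 CPM in Ptger4-OFF and 64.0 CPM in Ptger4-ON, a ratio of 2.11 (1.87 to 2.38). Their intervals lay clear of the 1.5-fold line. Ero1l, the oxidase that helps form disulfide bonds in the endoplasmic reticulum, was at 728 CPM in Ptger4-OFF and 398 CPM in Ptger4-ON, a ratio of 1.83 (1.74 to 1.92). P4ha2, a catalytic subunit of collagen prolyl hydroxylase, was at 42.5 CPM in Ptger4-OFF and 22.6 CPM in Ptger4-ON, a ratio of 1.88 (1.53 to 2.33). Both intervals also stayed above 1.5.

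The other 3 HIF-role genes past the fold lay closer to it, with intervals that crossed the line. Bnip3, a mitophagy receptor of the mitochondrial outer membrane, was at 115 CPM in Ptger4-OFF and 71.2 CPM in Ptger4-ON, a ratio of 1.61 (1.43 to 1.82). Egln3, an oxygen-sensing prolyl hydroxylase that is itself a HIF target, was at 268 CPM and 175 CPM in the same order, a ratio of 1.53 (1.41 to 1.65). Pdk1, a kinase that holds pyruvate back from respiration, was at 163 CPM in Ptger4-OFF and 108 CPM in Ptger4-ON, a ratio of 1.51 (1.37 to 1.67). Just inside the fold were Egln1, the main oxygen-sensing prolyl hydroxylase, and Kdm3a, a histone demethylase, both at a ratio of 1.29, and P4ha1, the other collagen prolyl hydroxylase subunit here, at 1.27.

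Hif1a, the oxygen-regulated subunit itself, ran the other way: 98.6 CPM in Ptger4-OFF and 161 CPM in Ptger4-ON, a ratio of 0.612 (0.555 to 0.675). Ddit4, an inhibitor of the growth kinase mTOR, was at 252 CPM in Ptger4-OFF and 295 CPM in Ptger4-ON, a ratio of 0.853 with an interval below 1 (0.798 to 0.911). Bnip3l, the close relative of Bnip3, had a ratio of 0.894 (0.779 to 1.03). For 6 genes of this role the interval held 1: Vegfa, the vascular growth factor, at 1.09, Higd1a, a mitochondrial inner membrane protein, at 1.05, Mxi1, a Myc antagonist, at 1.13, the regulators of fructose 2,6-bisphosphate Pfkfb3 and Pfkfb4 at 0.951 and 0.772, and Bnip3l. Pfkfb4 rested on 35 Ptger4-OFF and 33 Ptger4-ON UMIs.

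**Figure D1:**
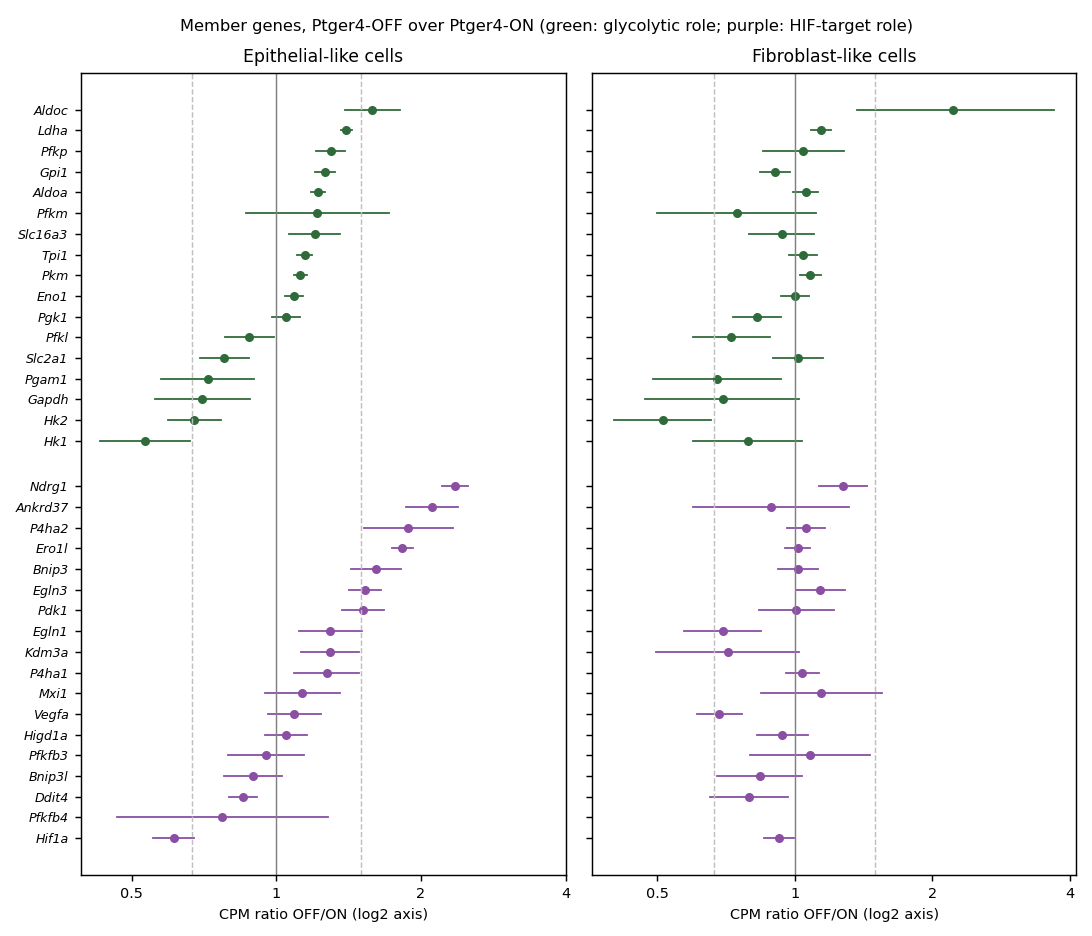
CPM ratio of Ptger4-OFF over Ptger4-ON (log2 axis) for the 35 genes in epithelial-like cells (left) and fibroblast-like cells (right), with 95% counting intervals as lines; green points are glycolytic genes, purple points HIF-role genes, and dashed lines mark 1.5-fold in either direction. In epithelial-like cells 7 purple points lie past the upper dashed line, led by Ndrg1 at 2.35, and in fibroblast-like cells none does; Pfkfb4 is not drawn on the right because it had under 20 UMIs.

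Over the class the glycolytic genes did not share a direction. They did not divide strictly by step, since of the later steps Pfkl, Gapdh and Pgam1 stood lower too. Of the 35 genes, those for glucose entry and the first enzyme, Slc2a1, Hk1 and Hk2, stood lower in Ptger4-OFF. The glucose transporter gene Slc2a1 (GLUT1) was at 79.4 CPM in Ptger4-OFF and 102 CPM in Ptger4-ON, a ratio of 0.779 (0.694 to 0.876). Hk1, one of the hexokinases that trap glucose in the cell, was at 19.7 CPM in Ptger4-OFF and 37.0 CPM in Ptger4-ON, a ratio of 0.533 (0.428 to 0.661), and was the 1 glycolytic gene past the fold downward. Hk2, the hexokinase that HIF is known to induce, was at 63.9 CPM in Ptger4-OFF and 94.7 CPM in Ptger4-ON, a ratio of 0.675 (0.595 to 0.765), just inside the fold. So over the class Slc2a1, Hk1 and Hk2 stood lower in Ptger4-OFF, by more than counting error. This did not hold in every cluster, as given below. Hkdc1, a hexokinase-domain protein gene outside the list, stood higher in Ptger4-OFF, as given under the other observations.

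Most later steps stood higher in Ptger4-OFF, by less than 1.5-fold. Aldoc, the aldolase isozyme typical of brain, was the exception past the fold, at 94.4 CPM in Ptger4-OFF and 59.6 CPM in Ptger4-ON, a ratio of 1.58 (1.39 to 1.81). Ldha, which makes lactate, was at 1997 CPM in Ptger4-OFF and 1428 CPM in Ptger4-ON, a ratio of 1.40 (1.36 to 1.44). The intervals of 8 further genes lay above 1 or held it: Pfkp (platelet phosphofructokinase) at 1.30, Gpi1 (glucose phosphate isomerase) at 1.26, Aldoa (the main aldolase) at 1.22, Slc16a3 (the lactate exporter MCT4, 93.0 CPM in Ptger4-OFF and 77.3 CPM in Ptger4-ON), Tpi1 (triose phosphate isomerase) at 1.15, Pkm (pyruvate kinase) at 1.12 and Eno1 (enolase) at 1.09 lay above it, and Pgk1 (phosphoglycerate kinase) at 1.05 held it. Pfkm, the muscle phosphofructokinase, had a ratio of 1.21 that also held 1 (0.864 to 1.72), and Pfkl, the liver form, was at 0.877 (0.780 to 0.986).

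Gapdh and Pgam1 are given as uncertain. Gapdh had 155 UMIs in Ptger4-OFF and 161 in Ptger4-ON epithelial-like cells, and Pgam1 161 and 163, so each rested on few reads. GENCODE vM21 lists 2 pseudogenes named after each, as it does for Aldoa, Ldha and Pgk1. Pseudogenes under other names were not counted, so the number of copies is not compared between these genes. Whether reads shared with such copies were kept in the counts is not given in the sources used here. The ratios were 0.701 (0.558 to 0.879) for Gapdh and 0.719 (0.575 to 0.899) for Pgam1.

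Which cells made up the epithelial class differed between the libraries, and the HIF-role result moved with it. The summed enterocyte marker list was at 3778 CPM in Ptger4-OFF and 1288 CPM in Ptger4-ON, and the fetal-like list at 2453 and 7561 CPM. Goblet cell markers were at 2243 CPM in Ptger4-OFF and 6038 CPM in Ptger4-ON, Paneth cell markers at 2609 and 6244 CPM, and the dissociation and heat-shock list at 3304 and 2750 CPM. Without the enterocyte-like cluster, 2 of 18 HIF-role genes remained at least 1.5-fold higher, Ndrg1 and Ankrd37, where 6.22% of all genes were, 2 stood at least 1.5-fold lower, Hif1a and Pfkfb4, where 11.1% were, and the median log2 ratio was 0.14. These shares of the role are near those of all genes. With every cluster given the same weight, the same 2 genes were past the fold upward. Without barcodes over 50000 UMIs, 6 of the 7 stayed past the fold and Egln3 was at a log2 ratio of 0.56. The part played by cell makeup in the class result was not tested beyond these values and those within clusters.

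Within clusters, the count past the fold was 9 in enterocyte-like cells and 5, 4, 2 and 0 in the others described here, but enterocyte-like cells did not lead without barcodes over 50000 UMIs. Of 18 HIF-role genes measured in the enterocyte-like cluster, 9 stood at least 1.5-fold higher in Ptger4-OFF, where 17.4% of all genes measured in it did, with a median log2 ratio of 0.57, and 2 stood as far lower, Hif1a and Pfkfb4, where 14.1% did. Ndrg1 was at 1605 CPM in Ptger4-OFF and 659 CPM in Ptger4-ON, a ratio of 2.44 (2.11 to 2.82). Ero1l was at 2434 CPM in Ptger4-OFF and 1096 CPM in Ptger4-ON, a ratio of 2.22 (1.99 to 2.48). P4ha2 was at 120 CPM in Ptger4-OFF and 43.1 CPM in Ptger4-ON, a ratio of 2.78 (1.61 to 5.21).

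The Ptger4-ON side of the enterocyte-like cluster was 34 cells, and 1 barcode over 50000 UMIs held 22.0% of its Ndrg1 and 23.3% of its Ero1l. Without barcodes of that depth 6 of 17 measured HIF-role genes stood past the fold upward, where 16.8% of all genes did, and 1 downward, Bnip3l at 0.596 (0.403 to 0.898), where 16.3% did. The upward count was then also 6 of 17 in the cluster led by Slfn9, where 9.93% of genes were, and 5 of 17 in fetal-like cells, where 7.23% were. In enterocyte-like cells without these barcodes Ndrg1 was at a ratio of 1.92 (1.65 to 2.24) and Ero1l at 1.79 (1.59 to 2.02), and Hif1a, of which that barcode held 44.2%, at 0.831 with an interval that held 1. Other measures also differed within the enterocyte-like cluster. Goblet cell markers summed to 1057 CPM in Ptger4-OFF and 4785 CPM in Ptger4-ON, fetal-like markers to 1145 and 3406 CPM, and the dissociation and heat-shock list to 3558 and 2599 CPM. The median mitochondrial share was 3.68% in Ptger4-OFF and 2.64% in Ptger4-ON. Their part in the result was not tested.

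In fetal-like cells the gene that stood out was Ankrd37. It was at 178 CPM in Ptger4-OFF and 43.3 CPM in Ptger4-ON, a ratio of 4.12 (3.24 to 5.26), and at 3.98 (3.03 to 5.27) without barcodes over 50000 UMIs. Ndrg1 was at 365 CPM in Ptger4-OFF and 202 CPM in Ptger4-ON, Egln3 at 304 and 180 CPM, and Mxi1 at 50.6 and 30.5 CPM. These 4 of 17 measured HIF-role genes were past the fold upward, where 6.72% of genes in this cluster were, yet the median log2 ratio of the role was -0.03.

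In the cluster led by Slfn9, 5 of 17 HIF-role genes stood at least 1.5-fold higher in Ptger4-OFF, where 9.77% of genes did, and none lower, where 8.73% did. Ndrg1 was at 372 CPM in Ptger4-OFF and 168 CPM in Ptger4-ON, Egln3 at 181 and 111 CPM, Kdm3a at 73.0 and 43.6 CPM, Bnip3 at 105 and 67.3 CPM, and P4ha2 at 32.4 and 21.1 CPM. Ero1l lay on the line, at 411 CPM in Ptger4-OFF and 275 CPM in Ptger4-ON, with a ratio just under it. In cycling cells none of 17 was past the fold in either direction, where 6.99% of genes stood at least 1.5-fold higher and 6.78% lower. Ndrg1 lay just under the line there, at 1.499 (1.28 to 1.77). Bnip3 was at 1.47 (1.12 to 1.95), while Ddit4 was at 0.816 (0.724 to 0.921). Without barcodes over 50000 UMIs 1 of 17 in cycling cells was past the fold upward, Bnip3 at 1.58, where 7.93% of genes were. In Paneth- and goblet-like cells 2 were past the fold upward, Egln1 and Egln3, where 12.1% of genes were, and none downward, where 11.7% were. Without barcodes over 50000 UMIs 2 of 17 were past it upward, where 12.5% of genes were. Then 3 were past it downward, Vegfa, Higd1a and Mxi1, where 11.7% were, all with intervals that held 1. Of 16 glycolytic genes in this cluster, all barcodes included, 3 were past the fold downward and the median log2 ratio was -0.24.

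Over these 5 epithelial clusters some genes had the same direction with all barcodes included. Ndrg1, Ankrd37, Bnip3, Ldha, Aldoa and Pfkp stood higher in Ptger4-OFF in all 5. Hif1a, Ddit4 and Gapdh stood lower in all 5, Hif1a by a log2 ratio between -0.71 in enterocyte-like and -0.01 in Paneth- and goblet-like cells. Only direction was counted here, and some of the intervals held 1. Those of Gapdh did in all 5. Those of Hif1a did in the Slfn9-led, cycling and Paneth- and goblet-like clusters, and those of Ankrd37 in enterocyte-like, cycling and Paneth- and goblet-like cells. Hif1a was as low as over the class only in enterocyte-like cells, at a ratio of 0.613. It was at 0.805 in fetal-like cells and 0.796 in the cluster led by Slfn9. Pgam1 stood lower in all but enterocyte-like cells, where it was at 25.7 CPM in Ptger4-OFF and 24.6 CPM in Ptger4-ON, on 32 and 8 UMIs. Without barcodes over 50000 UMIs, Bnip3 was at a ratio of 0.954 in enterocyte-like cells and Ankrd37 at 0.998 in Paneth- and goblet-like cells, and Pgam1 at 1.11 in enterocyte-like and 1.18 in fetal-like cells, while the other 7 of these genes kept their side of 1 in all 5. The lower class level of Slc2a1 did not hold within clusters: it was higher in Ptger4-OFF in 2 of the 5, enterocyte-like (128 CPM in Ptger4-OFF, 111 CPM in Ptger4-ON) and fetal-like cells (157 and 143 CPM), and the cluster led by Slfn9 had 52.9 and 52.8 CPM. Hk1 was likewise lower in 3 of 5, and Hk2 in 4 of 5.

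**Figure D2:**
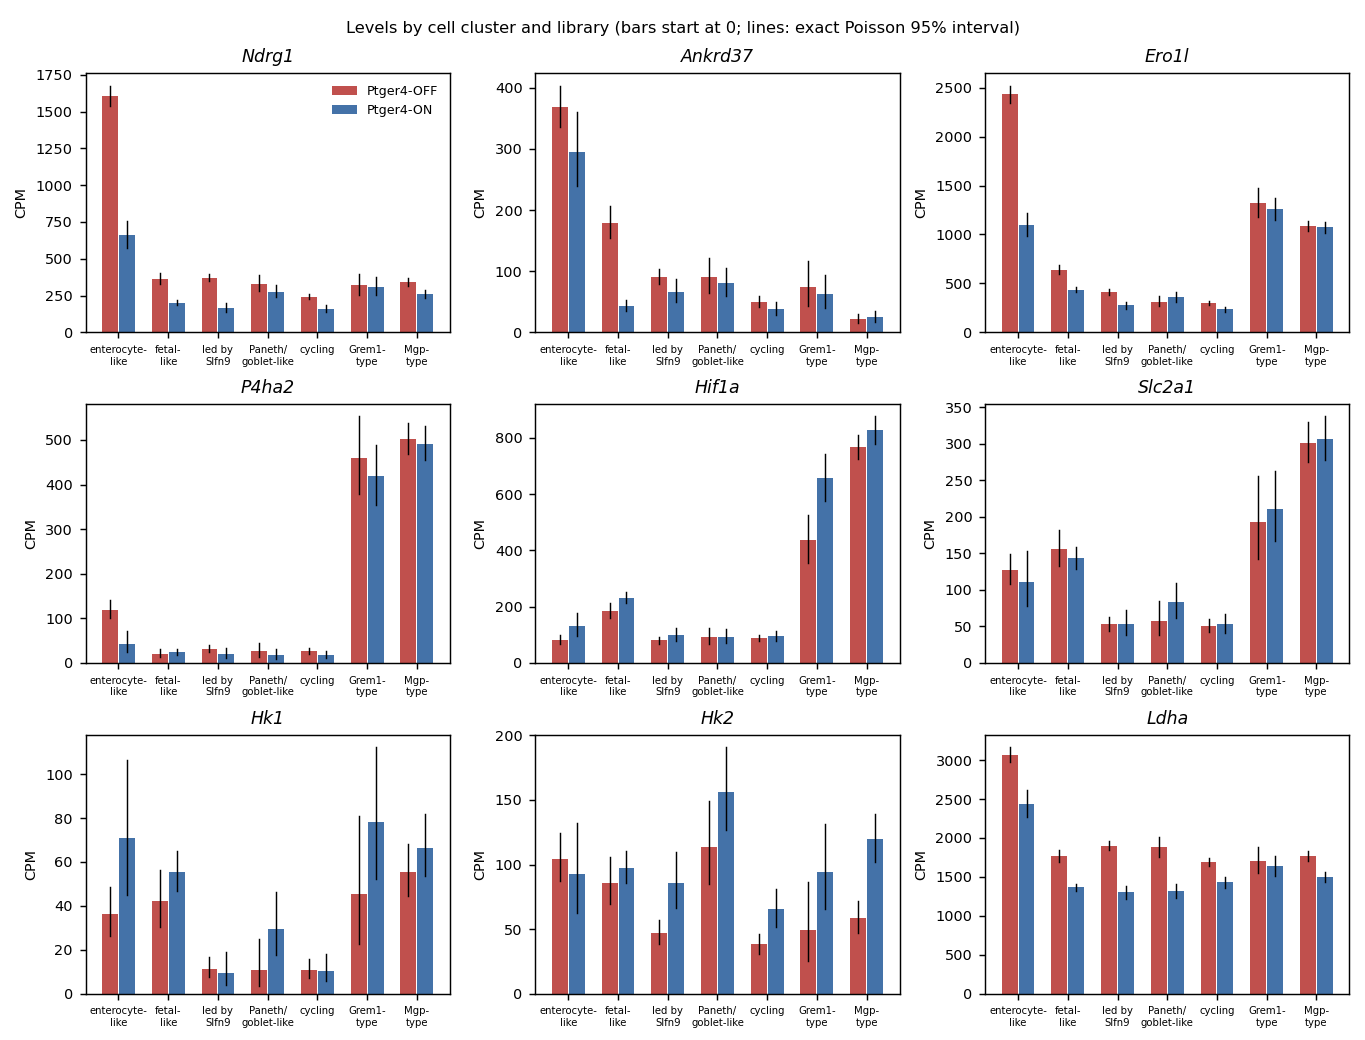
CPM of 9 of the genes by cluster, with Ptger4-OFF (red) left of Ptger4-ON (blue) in each pair and exact Poisson 95% intervals as lines; each panel has its own axis from 0. Ndrg1 and Ero1l are highest in Ptger4-OFF enterocyte-like cells, at 1605 and 2434 CPM, Ankrd37 differs most between libraries in fetal-like cells, and P4ha2, Hif1a and Slc2a1 are highest in the Grem1-type and Mgp-type fibroblasts.

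Among the epithelial states of the main clustering both roles were highest in enterocyte-like cells, which a finer clustering, given below, did not keep. The HIF-role genes summed to 6803 CPM in enterocyte-like and 2111 CPM in all other epithelial-like cells of Ptger4-OFF, a ratio of 3.22 (3.14 to 3.31). In Ptger4-ON the sums were 3942 and 1899 CPM, a ratio of 2.08 (1.96 to 2.20). Of 18 HIF-role genes, 15 were at least 1.5-fold higher in enterocyte-like cells in Ptger4-OFF, where 15.1% of all genes were, and 10 in Ptger4-ON, where 16.9% were. Of 17 glycolytic genes the counts were 12 and 11. Ero1l was 6.17-fold higher in this cluster in Ptger4-OFF (5.85 to 6.51) and 3.09-fold in Ptger4-ON (2.75 to 3.46), Ankrd37 4.13-fold and 5.97-fold, and Ndrg1 5.11-fold and 3.36-fold.

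2 HIF-role genes stood lower in enterocyte-like cells in both libraries. Ddit4 was at 186 CPM there and 264 CPM in other epithelial-like cells of Ptger4-OFF, and at 225 and 299 CPM in Ptger4-ON. Hif1a was at 81.2 and 102 CPM in Ptger4-OFF and at 132 and 163 CPM in Ptger4-ON. Its Ptger4-ON enterocyte-like value rested on 43 UMIs, of which 1 barcode held 44.2%. The outline of this cluster was not stable. With a limit of 200 genes per cell the median log2 ratio of the HIF role in Ptger4-ON was 0.015 in place of 0.85, with doublets kept it was 0.058, and with a finer clustering it was -0.03; in Ptger4-OFF it stayed between 0.68 and 1.07.

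In fetal-like cells the genes past the fold upward were the transporter Slc2a1, the hexokinase Hk1 and Hif1a, fewer of the 35 than of all genes. Slc2a1 was at 157 CPM in fetal-like and 67.1 CPM in other epithelial-like cells of Ptger4-OFF, and at 143 and 65.5 CPM in Ptger4-ON, ratios of 2.33 (1.94 to 2.80) and 2.19 (1.84 to 2.62). Hk1 was at 42.0 and 16.2 CPM in Ptger4-OFF and at 55.3 and 21.0 CPM in Ptger4-ON, with intervals of the ratio from 1.78 to 3.72 in Ptger4-OFF and a lower bound of 1.94 in Ptger4-ON. Hif1a was at 186 and 84.7 CPM in Ptger4-OFF and at 231 and 99.8 CPM in Ptger4-ON, ratios of 2.20 and 2.32. These 3 of 35 were past the fold upward in both libraries, where 16.1% of all genes were in Ptger4-OFF and 14.9% in Ptger4-ON. Of the 35, 6 were past the fold downward in Ptger4-OFF and 4 in Ptger4-ON, where 17.7% and 9.6% of all genes were. Gpi1, Pdk1 and Aldoc were below other epithelial-like cells in both libraries, Pdk1 at 87.8 and 175 CPM in Ptger4-OFF and at 90.5 and 123 CPM in Ptger4-ON.

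In a finer clustering, also run without the 35 genes, the cluster with the highest HIF-role sum was taken out for description. It held 220 Ptger4-OFF and 41 Ptger4-ON cells, 18.3% and 6.97% of the epithelial-like cells. Its leading genes were 2610528A11Rik, Ndrg1, Selenbp1, Nrn1 and Edn1, and Aldoc, Ankrd37 and Ero1l were also among its first 10. It drew 146 and 17 cells from the cluster led by Slfn9 and 63 and 15 from the enterocyte-like cluster. Its enterocyte markers were low, at 419 CPM in Ptger4-OFF and 115 CPM in Ptger4-ON, where the rest of the epithelial-like cells had 4280 and 1346 CPM. When all variable genes were used, 209 of its 261 cells fell in a like cluster of 268 cells, 80.1% of the first and 78.0% of the second. With both libraries pooled, it summed to 5947 CPM for the HIF role and 11508 CPM for the glycolytic genes. The enterocyte cluster of the finer clustering was lower in both, at 5012 and 10654 CPM. The cluster taken out was given no cell type name.

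The HIF-role level chose this cluster, so the values against other cells describe the choice and support nothing. The sum was 6224 CPM inside and 2378 CPM outside it in Ptger4-OFF, and 4903 and 1876 CPM in Ptger4-ON, a ratio of 2.62 (2.54 to 2.70) and 2.61 (2.46 to 2.77). In both libraries 13 of 18 HIF-role genes were at least 1.5-fold higher inside, where 8.66% of genes were in Ptger4-OFF and 13% in Ptger4-ON. None was as far lower in Ptger4-OFF and 1 was in Ptger4-ON, where 18.9% and 27.5% of genes were. P4ha2 was at 155 CPM inside and 25.7 CPM outside in Ptger4-OFF, and at 84.0 and 19.5 CPM in Ptger4-ON, which made it 6.02-fold (4.80 to 7.53) and 4.30-fold (2.58 to 6.86) higher. Ndrg1 was 3.90-fold and 4.48-fold higher inside, Ero1l 3.57-fold and 4.24-fold, and Bnip3 2.71-fold and 4.05-fold. Of the exceptions, Hif1a stood below the outside level in both libraries, at 77.8 and 102 CPM in Ptger4-OFF and at 115 and 164 CPM in Ptger4-ON, where the interval held 1.

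The difference between conditions was present both inside and outside this group for Ndrg1. Outside it, Ndrg1 was at 381 CPM in Ptger4-OFF and 192 CPM in Ptger4-ON, Ankrd37 at 112 and 56.3 CPM, Ero1l at 546 and 345 CPM and Bnip3 at 93.9 and 62.2 CPM; these 4 of 18 were past the fold, where 6.95% of genes were. Inside it, Ndrg1 was at 1489 and 859 CPM and P4ha2 at 155 and 84.0 CPM, and these 2 of 17 measured were past the fold, where 16.4% of genes were. The median log2 ratio of the role was 0.29 outside and 0.09 inside.

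The levels were also counted per cell, which describes the cells of these 2 libraries and not the conditions. After each cell was thinned to 1000 UMIs, which left out 47 Ptger4-OFF and 58 Ptger4-ON epithelial-like cells that were shallower, 78 of 1153 Ptger4-OFF cells had at least 10 HIF-role UMIs, 6.76% (5.38 to 8.37, exact binomial), and 13 of 530 Ptger4-ON cells did, 2.45% (1.31 to 4.16). The median cell had 2 and 1. These counts weigh genes by level. The highest of the role in Ptger4-OFF epithelial-like cells were Ero1l and Ndrg1, at 728 and 525 CPM, against 398 and 223 CPM in Ptger4-ON. For the glycolytic genes the shares were 29.6% (27.0 to 32.3) and 17.5% (14.4 to 21.1), with medians of 7 and 6. Fibroblast-like cells had medians of 4 and 5 HIF-role UMIs and of 8 glycolytic UMIs in both libraries, and 8.91% and 11.2% of them had at least 10 HIF-role UMIs, with intervals that overlapped.

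At 1000 UMIs, 358 of 1153 Ptger4-OFF and 106 of 530 Ptger4-ON epithelial-like cells had an Ndrg1 UMI, and 11.2% and 5.66% had an Ankrd37 UMI (129 and 30 cells). Bnip3 was seen in 10.1% and 4.34%, Egln3 in 21.0% and 15.1%, and Ldha in 81.2% and 68.5%. Slc2a1 was seen in 8.41% of Ptger4-OFF and 10.2% of Ptger4-ON cells, Hk2 in 7.63% and 9.06%, and Hk1 in 2.17% and 4.34%, with intervals that overlapped for these 3. Without thinning the shares were 55.2% in Ptger4-OFF and 44.9% in Ptger4-ON for Ndrg1, 31.7% and 23.8% for Ankrd37, and 9.42% and 20.2% for Hk1, at median depths of 4160 and 4621 UMIs. No cell type here is known to lack these genes, so free RNA was judged only from the marker lists above.

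**Figure D3:**
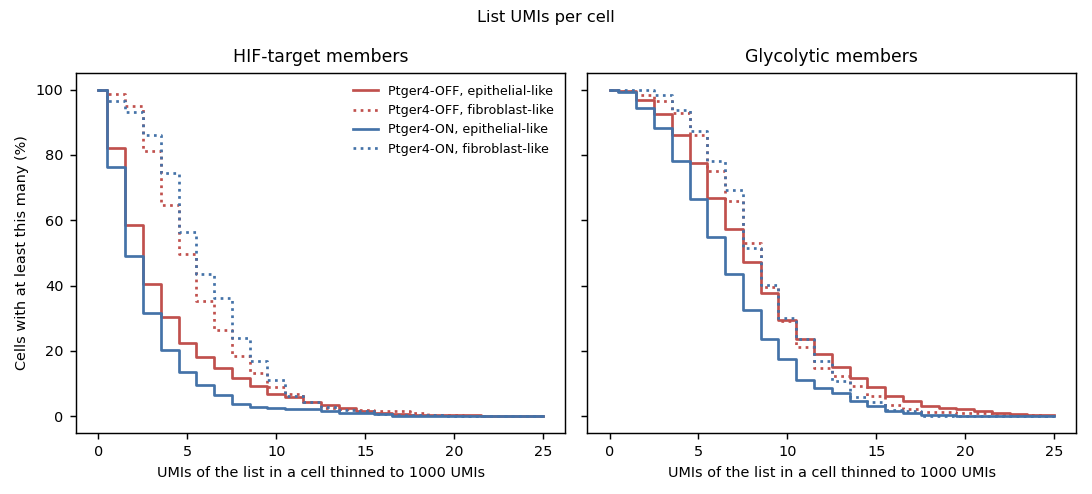
Share of cells (y axis, percent) with at least a given number of UMIs of the HIF-role genes (left) or glycolytic genes (right) after each cell was thinned to 1000 UMIs, for Ptger4-OFF (red) and Ptger4-ON (blue) epithelial-like (solid) and fibroblast-like (dotted) cells. At 10 HIF-role UMIs the solid curves stand at 6.76% in Ptger4-OFF and 2.45% in Ptger4-ON, and the dotted curves at 8.91% and 11.2%.

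Which genes moved with the HIF-role sum was read over 10 points, the 5 epithelial clusters in each library, as Pearson's correlation of the log2 level of a gene with the log2 sum of the other HIF-role genes. The points share 2 libraries and differ in depth, so the values are descriptions. The enterocyte-like points stood apart, with HIF-role sums of 6803 CPM in Ptger4-OFF and 3942 CPM in Ptger4-ON. The other points lay between 1675 and 2593 CPM, so a high value largely restates a high level in enterocyte-like cells. Ero1l had the highest, 0.98, followed by Aldoa, P4ha1 and Pfkp at 0.97, Bnip3 and Egln3 at 0.94 and Ndrg1 and P4ha2 at 0.93. Glycolytic genes were thus among the closest, Slc16a3 and Eno1 at 0.92 and Ldha at 0.90. At the other end stood Ddit4 at -0.84, Pfkm at -0.21, Hif1a at -0.08, Pgam1 at 0.12 and Hk2 at 0.20.

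Over the whole fibroblast-like class the 2 conditions differed in few of these genes. More of them were past the fold in Grem1-type cells, as given below. Over the class no HIF-role gene was past the fold in either direction among the 17 measured. Of the 9757 genes in this class, 6.73% stood at least 1.5-fold higher and 7.64% lower. The median log2 ratio of the HIF role was 0.01. Of 17 glycolytic genes, Aldoc was past the fold upward and Hk2 downward. Pfkfb4, at 1 UMI in Ptger4-OFF and 3 in Ptger4-ON, was not measured.

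Hk2 was at 57.6 CPM in Ptger4-OFF and 112 CPM in Ptger4-ON, a ratio of 0.514 (0.402 to 0.654), from 106 and 197 UMIs. It was as low in Mgp-type cells, at 58.5 and 120 CPM, a ratio of 0.489 (0.375 to 0.635), and in Grem1-type cells at 49.3 and 94.5 CPM, where the interval held 1 (0.246 to 1.03). Hk2 was thus lower in Ptger4-OFF in both cell classes. Aldoc was at 31.5 CPM in Ptger4-OFF and 14.2 CPM in Ptger4-ON, a ratio of 2.22 (1.36 to 3.70), on 58 and 25 UMIs.

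Vegfa, which fibroblasts secrete, was at 286 CPM in Ptger4-OFF and 418 CPM in Ptger4-ON, a ratio of 0.684 (0.610 to 0.766), just inside the fold, and at 0.660 (0.580 to 0.749) in Mgp-type cells, past it. Of 34 genes measured in Mgp-type cells it was 1 of 2 at least 1.5-fold lower, with Hk2, where 8.09% of genes were, and Aldoc was the 1 higher, where 7.31% were. Egln1 was at 102 CPM in Ptger4-OFF and 146 CPM in Ptger4-ON, a ratio of 0.695 (0.573 to 0.842). With each cell given the same weight both were past the fold downward. Intervals below 1 were also those of Ddit4 at 0.795, Pfkl at 0.726, Pgk1 at 0.826, Gpi1 at 0.904, Pgam1 at 0.677 and Hif1a at 0.925, and intervals above 1 those of Ndrg1 at 1.27 (1.13 to 1.44), Ldha at 1.14, Egln3 at 1.14 and Pkm at 1.08. Of the 7 HIF-role genes past the fold in epithelial-like cells, Ndrg1 and Egln3 were thus above 1 here too, by less. Ero1l was at 1115 CPM in Ptger4-OFF and 1100 CPM in Ptger4-ON, P4ha2 at 495 and 468 CPM, Bnip3 at 434 and 428 CPM and Ankrd37 at 28.8 and 32.4 CPM.

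Set against fibroblast-like cells, epithelial-like cells carried less of the collagen hydroxylases, Hif1a and the transporter, and more Ankrd37, Pfkp and Ddit4. The HIF-role genes summed to 2878 CPM in epithelial-like and 5211 CPM in fibroblast-like cells of Ptger4-OFF, and to 2019 and 5330 CPM in Ptger4-ON. In Ptger4-OFF 8 of 18 were at least 1.5-fold lower in epithelial-like cells, where 24.8% of all genes were, and 5 higher, where 38% were; in Ptger4-ON 10 were lower and 3 higher, where 24% and 38.2% of all genes were.

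P4ha1 was at 59.6 CPM in epithelial-like and 661 CPM in fibroblast-like cells of Ptger4-OFF, and at 46.8 and 636 CPM in Ptger4-ON, log2 ratios of -3.47 and -3.76. P4ha2 was at 42.5 and 495 CPM in Ptger4-OFF and at 22.6 and 468 CPM in Ptger4-ON, log2 ratios of -3.54 and -4.37. Both make the collagen prolyl hydroxylase that fibroblasts use to fold collagen, and they were the members with the widest gap between the classes. Hif1a was at 98.6 and 722 CPM in Ptger4-OFF and at 161 and 781 CPM in Ptger4-ON. Slc2a1 was at 79.4 and 287 CPM in Ptger4-OFF and at 102 and 282 CPM in Ptger4-ON, Bnip3 at 115 and 434 CPM and at 71.2 and 428 CPM, and Vegfa at 81.9 and 286 CPM and at 75.2 and 418 CPM. All 4 were lower in epithelial-like cells in both libraries.

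Ankrd37 was at 135 CPM in epithelial-like and 28.8 CPM in fibroblast-like cells of Ptger4-OFF, and at 64.0 and 32.4 CPM in Ptger4-ON. Pfkp was at 292 and 110 CPM in Ptger4-OFF and at 225 and 106 CPM in Ptger4-ON, Aldoc at 94.4 and 31.5 CPM and at 59.6 and 14.2 CPM, and Ddit4 at 252 and 105 CPM and at 295 and 132 CPM. Each was higher in epithelial-like cells in both libraries. Ndrg1 changed side: it was at 525 and 339 CPM in Ptger4-OFF, a ratio of 1.55 (1.42 to 1.69), and at 223 and 266 CPM in Ptger4-ON, a ratio of 0.838 (0.753 to 0.934). Other glycolytic genes were closer, with Ldha, Tpi1, Aldoa and Pgk1 within 1.5-fold between the classes in both libraries.

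The fibroblast types differed in single genes and not as whole roles. Median log2 ratios of Grem1-type over Mgp-type cells were 0.04 in Ptger4-OFF and 0.18 in Ptger4-ON for the HIF role and -0.09 and 0.18 for the glycolytic genes. In Ptger4-OFF, 2 of 34 measured genes were at least 1.5-fold higher, where 12.3% of all genes were, and 4 lower, where 24.9% were; in Ptger4-ON 3 were higher, where 11.9% were, and 1 lower, where 20.9% were.

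Ankrd37 was higher in Grem1-type cells in both libraries, at 73.9 CPM in Grem1-type and 22.0 CPM in Mgp-type cells of Ptger4-OFF (18 and 35 UMIs) and at 62.1 and 24.4 CPM in Ptger4-ON (23 and 33 UMIs), ratios of 3.36 (1.79 to 6.09) and 2.55 (1.43 to 4.48). Pgk1 was at 411 and 243 CPM in Ptger4-OFF and at 421 and 290 CPM in Ptger4-ON, ratios of 1.69 (1.34 to 2.11) and 1.45, both with intervals above 1. P4ha1 was at 928 and 622 CPM in Ptger4-OFF and at 772 and 613 CPM in Ptger4-ON, ratios of 1.49 and 1.26. These were the genes above Mgp-type cells by more than counting error in both libraries, with Ero1l and Gpi1 at smaller ratios, from 1.17 to 1.23.

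Hif1a and Slc2a1 ran the other way. Hif1a was at 435 CPM in Grem1-type and 767 CPM in Mgp-type cells of Ptger4-OFF and at 656 and 827 CPM in Ptger4-ON, ratios of 0.568 (0.461 to 0.693) and 0.794 (0.688 to 0.913). Slc2a1 was at 193 and 302 CPM in Ptger4-OFF and at 211 and 307 CPM in Ptger4-ON, ratios of 0.639 and 0.686. Aldoc had the lowest ratios but rested on 4 and 1 Grem1-type UMIs. Higd1a at 1.52 and Pfkm at 1.83 were past the fold upward in Ptger4-ON and at 1.08 and 0.777 in Ptger4-OFF.

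**Figure D4:**
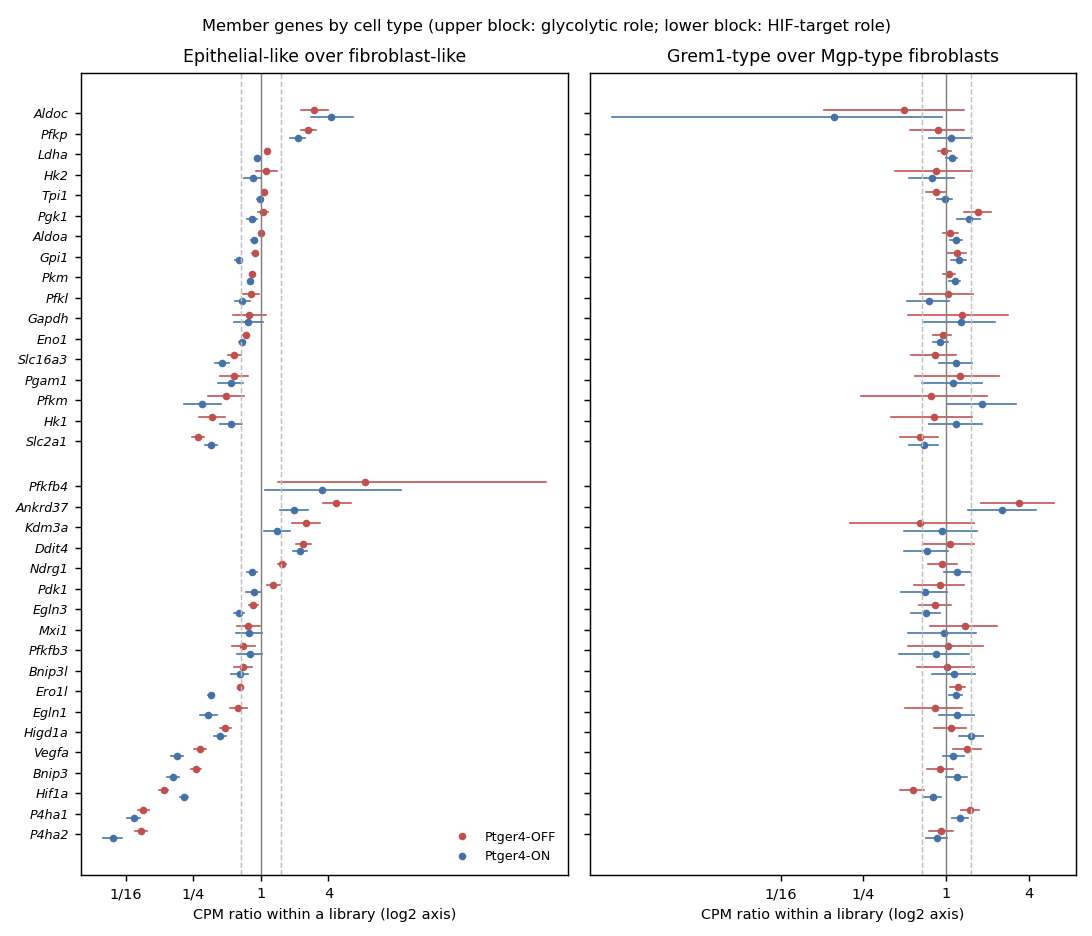
CPM ratio within each library (log2 axis) of epithelial-like over fibroblast-like cells (left) and of Grem1-type over Mgp-type cells (right), for Ptger4-OFF (red) and Ptger4-ON (blue), with 95% counting intervals as lines and 1.5-fold as dashed lines; the upper block holds glycolytic genes and the lower block HIF-role genes. P4ha1 and P4ha2 lie farthest left in the left panel, and Ankrd37 lies right of the dashed line in both panels and both libraries.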

How the data were processed

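Droplet libraries of 2 conditions, 1 library each, were read from tables of UMI counts per gene and cell barcode, deposited by the authors and used as raw counts. Reads were aligned with STAR 2.6 to mm10, per the submitters' processing notes; for the counting tool and reads with several matches, nothing is given in the sources used here. Of the finer clusters, the one with the highest HIF-role sum is described. Libraries were grouped by their labels, and 0 columns were left unused. The 35 genes and all lists were chosen with earlier results of these data known. Every one of the 35 with at least 20 UMIs in a class is named with values.

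A barcode was retained when it showed 300 or more genes and its mitochondrial share did not exceed 20%. Scrublet then called doublets per library, and 4 Ptger4-OFF and 6 Ptger4-ON barcodes were removed. Cells were clustered jointly (scanpy 1.11.5, 2000 variable genes without the 35 genes and the wider lists, 30 components, 15 neighbours, Leiden resolution 0.5) and named from fixed markers. UMIs were summed per class and library into CPM. Ratios have exact conditional binomial 95% intervals, and single levels exact Poisson intervals, which cover counting error only; log2 ratios of lists used a pseudocount of 0.5. edgeR 4.0.16 (R 4.3.3) gave TMM factors for an alternative only. Other tools were Python 3.11.15, numpy 2.4.6, scipy 1.17.1 and pandas 2.3.3. The calculation was tested on simulated data. Alternatives covered cell and gene filters, doublets, resolution, clustering genes, classes from markers, scaling, cell and cluster weights, the pseudocount and left-out barcodes or clusters. Promoters came from RefSeq (GRCm38.p6).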

Additional observations from a re-analysis of the deposited data

Results flagged for a closer look

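Gpi1 and Egln1 stood on opposite sides of 1 in the cell classes, with counting intervals that held 1 in neither. The Gpi1 ratio of Ptger4-OFF over Ptger4-ON was 1.26 in epithelial-like cells and 0.904 in fibroblast-like cells. The Egln1 ratio was 1.29 in epithelial-like cells and 0.695 in fibroblast-like cells. The class value of Gpi1 did not hold in every epithelial cluster. Gpi1 was at 0.736 (0.613 to 0.881) in Paneth- and goblet-like and 0.893 (0.812 to 0.982) in cycling cells. It was at 1.01 in the cluster led by Slfn9, 1.19 in fetal-like and 1.27 in enterocyte-like cells. Egln1 was below 1 in cycling cells, at 0.925 (0.707 to 1.22), and above 1 in the other clusters described. With 1 library per condition the difference between the classes was not tested.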

How the results depend on the processing

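No paired analysis was possible because each condition was 1 library. The median log2 ratio of Ptger4-OFF over Ptger4-ON in epithelial-like cells was 0.16 for the glycolytic genes, and became 0.21 with TMM factors, 0.21 with median-of-ratios factors, 0.22 with equal weight for each cell and -0.000474 with clusters weighted equally. For the HIF role it was 0.36, and 0.14 without the enterocyte-like cluster, an alternative chosen after seeing the data. Between enterocyte-like and other epithelial-like cells, a limit of 200 genes per cell gave medians of 0.50 (glycolytic) and 0.68 (HIF role) in Ptger4-OFF; in Ptger4-ON the HIF-role median was 0.015 with that limit, 0.058 with doublets kept and -0.035 at resolution 1. Genes past the fold between conditions numbered 2094 for the epithelial-like class and 1402 for the fibroblast-like class; at a minimum of 100 UMIs they numbered 1048 and 285, because fewer genes were measured, and in fibroblast-like cells 2226 with equal cell weight and 2156 with clusters weighted equally. Pfkm between fibroblast types in Ptger4-ON turned from a log2 ratio of 0.89 to -0.15 with equal cell weight. Except where construction is named, the cause was not tested. Over all alternatives, 71 of 2142 single-gene log2 ratios left their main counting interval and 37 had the opposite sign, of which 1, Pfkm above, was past the fold in the main value. Another scaling shifted all epithelial-like ratios by 0.05 (log2). Depth limits genes with few UMIs, such as Pfkfb4 and Pfkm.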

Other observations

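Wider lists of the same pathways, none of them including the 35 genes, gave the following counts. Of 40 other genes of glycolysis, gluconeogenesis, pyruvate handling and the pentose phosphate pathway, 32 were measured in epithelial-like cells, and 13 stood at least 1.5-fold higher and 0 lower in Ptger4-OFF than in Ptger4-ON, where 7.41% and 10.6% of all genes did, with a median log2 ratio of 0.35. Fbp1, the gluconeogenic fructose bisphosphatase, was at 102 CPM in Ptger4-OFF and 34.9 CPM in Ptger4-ON, Khk, the fructose kinase, at 150 and 55.1 CPM, and Hkdc1, a hexokinase-domain protein, at 50.6 and 19.2 CPM. The lowest ratios were those of Pfkfb2 at 0.751, Rpia at 0.822 and Tkt at 0.899. The enterocyte markers also differed between the libraries, as given above, and their part in these values was not tested.

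Of 40 other hypoxia-inducible genes, 34 were measured in epithelial-like cells, 6 stood past the fold upward and 1 downward, against the same 7.41% and 10.6% of all genes, and the median log2 ratio was 0.05. Selenbp1 was at 110 CPM in Ptger4-OFF and 43.2 CPM in Ptger4-ON, Fam162a at 951 and 600.1 CPM, and Car9, a carbonic anhydrase, at 465 and 308 CPM. In fibroblast-like cells 36 were measured, 1 was past the fold upward and 3 downward, where 6.73% and 7.64% of all genes were; Hmox1, heme oxygenase, was at 314 CPM in Ptger4-OFF and 484 CPM in Ptger4-ON. Of 13 genes for HIF subunits and oxygen sensing, 11 were measured in epithelial-like cells, with 1 past the fold upward and 0 downward, and 8 in fibroblast-like cells, with 0 in either direction. Of the 40 glycolysis-related genes, 24 were measured in fibroblast-like cells, with 2 past the fold in each direction.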
